A study of Mus musculus with 5 samples.

Results

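Immediate early genes are switched on within minutes of a stimulus, without new protein synthesis, by kinases that act on transcription factors already bound at their promoters. They were followed here in 9 genes, namely Fos, Fosb, Jun, Junb, Egr1, Nr4a1, Ier2, Btg2 and Arc, out of 18193 genes that the arrays measured by name. Members were taken by gene symbol alone: every probe set whose single symbol in the platform annotation was one of these names, 11 probe sets in all, with a pair each for Jun and Btg2 and 1 for each other gene. Fos, Fosb, Jun and Junb encode subunits of the AP-1 transcription factor, Egr1 a zinc finger factor, Nr4a1 an orphan nuclear receptor and Arc a synaptic protein of neurons. In brain, these genes are widely used as marks of recent neuronal activity, and in dissociated or injured tissue they respond to handling. Btg2 is an antiproliferative gene that also marks neurogenic progenitors of the embryonic forebrain.

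The source was the MGE, or medial ganglionic eminence, an embryonic ventral forebrain zone that gives rise to cortical interneurons, taken at E15.5. There was 1 array of primary neuronal cultures from Dlx1/2 mutant embryos, 1 of cultures from wild-type (WT) embryos, 2 of mutant tissue and 1 of WT tissue. The WT tissue array is WT by its description, but its title gives the genotype as +/_, so its second allele is not settled and every difference from WT tissue carries that doubt. All 5 arrays derive from the rostral ventricular and subventricular zones, and the mutants lack the homeodomain transcription factors Dlx1 and Dlx2. The labels give neither the allele structure, the mouse strain, the time in culture, the time from dissection to lysis, whether embryos were pooled, nor whether the mutant tissue pair came from separate embryos. The p-values therefore measure only how far these arrays scatter, which may be technical scatter, and with so few arrays every value is imprecise.

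The targeted genes followed the labels. Dlx1 read 1.26 in mutant culture against 603 in WT culture, and 2.80 and 0.921 in mutant tissue against 3278 in WT tissue. Dlx2 read 21.7 against 331 in culture, and 18.7 and 11.7 against 1069 in tissue, mutant before WT. These are the deposited signals, linear intensities in arbitrary units; values at or below 5.15 after quantile normalization were treated as a floor. Tests were made for the 11063 genes whose mean log2 signal lay above 4.80 (a signal of 27.8), with limma and Benjamini-Hochberg adjustment over all of them, and an adjusted p below 0.05 counted as past the threshold. Fos, Egr1, Jun, Ier2, Nr4a1 and Btg2 were tested, while Fosb, Junb and Arc were too dim. Fos passed that intensity filter through its culture values, since its 3 tissue signals all lay below 27.8.

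RefSeq promoter sequence was searched for 6 of the 9 genes, and not for Egr1, Ier2 and Arc. The 250 bases before the transcription start of Fos and Btg2 are printed 5′ to 3′ because these were the tested members with the largest differences between culture and tissue, in opposite directions. The Fos gene spans chr12:85473890-85477274 and Btg2 chr1:134074865-134079155 in the same build. Capitals mark matches to the cAMP response element TGACGTCA or its core TGACG, to TATAAA, and to the Egr-type motif GCGNGGGCG. Both strands were searched, as were TGANTCA (AP-1) and the CArG box bound by serum response factor.
Fos (chr12:85473640-85473889, plus strand, GRCm38.p6): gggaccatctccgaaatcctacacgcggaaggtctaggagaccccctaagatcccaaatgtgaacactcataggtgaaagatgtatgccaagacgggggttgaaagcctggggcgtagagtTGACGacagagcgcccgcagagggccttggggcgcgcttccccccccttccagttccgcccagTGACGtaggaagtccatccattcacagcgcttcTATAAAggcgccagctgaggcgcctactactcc
Btg2 (chr1:134079156-134079405, minus strand, GRCm38.p6): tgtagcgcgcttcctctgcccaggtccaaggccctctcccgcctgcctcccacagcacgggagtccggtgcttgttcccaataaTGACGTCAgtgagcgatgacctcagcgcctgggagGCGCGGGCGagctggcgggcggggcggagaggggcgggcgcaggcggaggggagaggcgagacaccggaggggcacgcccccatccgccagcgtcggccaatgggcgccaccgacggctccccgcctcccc
The Fos window held TGACG at 129 to 125 and at 66 to 62 bases before the start, and TATAAA at 33 to 28 bases before it. The Btg2 window held the whole element TGACGTCA at 166 to 159 bases before the start, which contains the core on both strands, and the Egr-type motif at 131 to 123 bases before it. In windows of 300 bases that run 50 bases past the start, TGACG was present in 20.81% of 32851 promoters, TGACGTCA in 1.79%, TATAAA in 13.62% and GCGNGGGCG in 5.55%. Of the other 4 genes, Fosb and Junb held 1 TGACG match each, Nr4a1 held 4 and Jun none. Fosb and Nr4a1 each held 1 Egr-type match, and Junb held TATAAA at bases 1 to 6 of the transcript. TGANTCA, found in 7.81% of all promoters, and the CArG box, found in 1.63%, had no match in these 6 windows. Bases farther upstream and the promoter of Egr1 were not searched, so sites there would be missed. These matches are letters in a window and were not tied to any measurement.

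**Figure D1:**
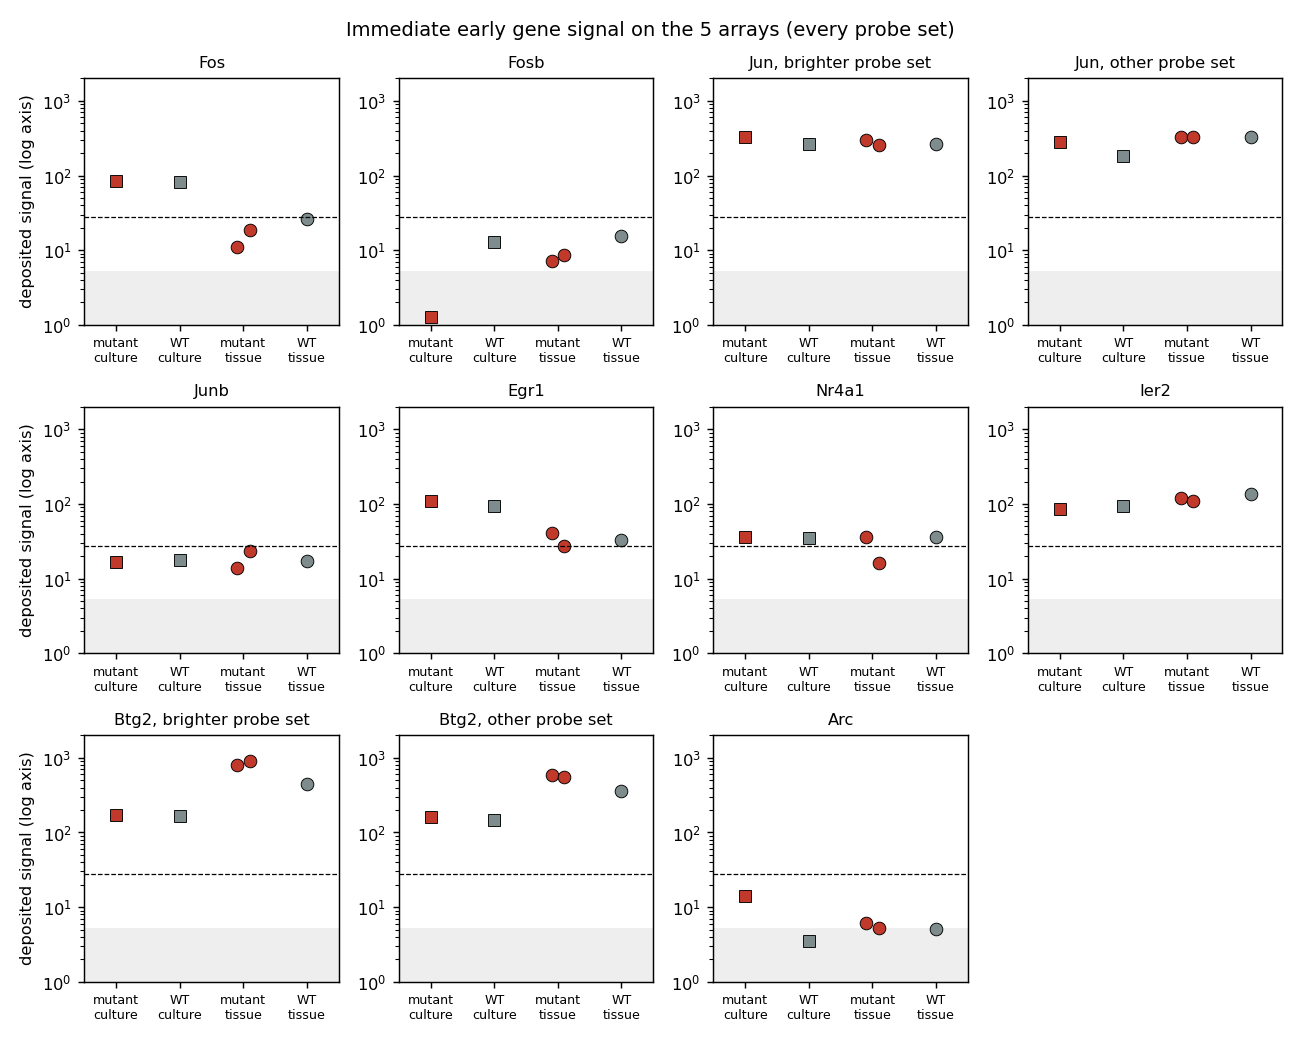
Deposited signal (log axis) of every probe set of the 9 immediate early genes, with mutant (red) and WT (grey) cultures as squares and mutant and WT tissue as circles; the dashed line is the signal of 27.8 above which a gene's mean had to lie to be tested, and the grey band ends at the floor of 5.15. Fos and Egr1 sit higher in both cultures than in the 3 tissue arrays, Btg2 sits lower in both cultures, and Fosb, Junb and Arc stay below 27.8 on every array.

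Culture against tissue gave the largest differences among these genes. Fos and Egr1 rose in culture, by 4.71-fold and 3.27-fold, and Btg2 fell by 1.90 on the log2 scale (3.74-fold lower). Of the 6 genes tested, 2 rose, 1 fell and 3 did not pass, while among all genes tested 19.6% rose and 19.2% fell (38.8% in either direction), so the members' share of calls is close to the background. The median log2 difference was 0.30 over the 6 genes, against 0.0016 over all genes tested. That median lay between Jun (0.19) and Nr4a1 (0.42). The other Jun probe set gave −0.42, so the median depends on which of them stands for Jun. On the normalized values both cultures lay above all 3 tissue arrays for Fos, Egr1 and, by a narrow margin, Nr4a1, as they did for 29.6% of all genes tested, and below them for Btg2 and Ier2, as for 29.2%. Genotype was a covariate, so the spread includes any disagreement between mutant and WT.

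Among the AP-1 genes, Fos, the canonical rapidly induced member, read 85.2 in mutant culture and 81.0 in WT culture, against 10.9 and 18.9 in mutant tissue and 26.3 in WT tissue. Both cultures lay above all tissue arrays, and the cultures lay closer to each other than the mutant tissue pair did. Fos was tested through its culture signals, so its passing the threshold adds little to these values. The fitted difference was 2.23 ± 0.41 (log2 ± SE, limma adjusted p = 0.0041). It was 5.95-fold among the mutant arrays (adjusted p = 0.0023 in a fit of those 3 arrays) and 3.45-fold between the WT arrays, which allow no test.

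Jun, the partner that pairs with Fos proteins, depended on the probe set. Its marginally brighter probe set read 330 in mutant culture and 264 in WT culture, against 296 and 260 in mutant tissue and 268 in WT tissue, so the preparations overlapped (0.19 ± 0.15, 95% interval −0.16 to 0.53, adjusted p = 0.36). The other read 282 and 182 in mutant and WT culture, against 324 and 329 in mutant tissue and 324 in WT tissue, without overlap (−0.42 ± 0.17, adjusted p = 0.090 in the limma fit of all 19307 probe sets above the filter). Their mean log2 levels over the 5 arrays were 8.14 each, so the choice of the brighter one is arbitrary, and the direction of Jun is not settled.

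Fosb and Junb, the other AP-1 subunits, were dim everywhere. Junb read 16.6 in mutant culture and 17.8 in WT culture, against 14.0 and 23.3 in mutant tissue and 17.3 in WT tissue, with the mutant tissue pair spanning the other arrays. Fosb read 1.29 in mutant culture and 12.7 in WT culture, against 7.23 and 8.52 in mutant tissue and 15.4 in WT tissue, so the preparations overlapped. When dim genes were tested too, the difference between preparations was 0.02 ± 0.35 for Junb (limma adjusted p = 1) and −0.44 ± 0.20 for Fosb (adjusted p = 0.28).

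Egr1, which couples growth factor and synaptic signals to later gene expression, read 110.04 in mutant culture and 94.6 in WT culture, against 41.3 and 27.8 in mutant tissue and 33.3 in WT tissue. Again both cultures lay above all tissue arrays. The difference was 1.71 ± 0.29 (limma adjusted p = 0.0026), with 3.34-fold in mutant and 3.18-fold in WT arrays.

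Nr4a1, a nuclear receptor also induced by depolarization, read 36.4 in mutant culture and 34.9 in WT culture, against 35.7 and 16.2 in mutant tissue and 36.2 in WT tissue. Mutant tissue replicate 2 was the single low array and the other 4 were closely spaced, and the difference of 0.42 ± 0.44 did not pass (limma 95% interval −0.60 to 1.44, adjusted p = 0.49). Ier2, a small nuclear protein gene of the same early wave, read 84.5 and 93.3 in mutant and WT culture, against 122 and 108 in mutant tissue and 138 in WT tissue. Both cultures lay below all tissue arrays, and the difference of −0.43 ± 0.19 did not pass (limma 95% interval −0.85 to 0.0013, adjusted p = 0.11).

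Btg2 was the 1 tested member to fall past the threshold. Its brighter probe set read 171 in mutant culture and 166 in WT culture, against 807 and 902 in mutant tissue and 446 in WT tissue. Its other probe set gave the same picture, 160 and 145 in mutant and WT culture against 587 and 559 in mutant tissue and 365 in WT tissue. The cultures were near equal and below all tissue arrays for both probe sets. The fall was by 1.90 ± 0.20 (log2, limma adjusted p = 0.00031) for the brighter and by 1.57 ± 0.16 (adjusted p = 0.00024 over all probe sets) for the other. Arc read 14.03 in mutant culture and 3.54 in WT culture, against 6.17 and 5.18 in mutant tissue and 5.10 in WT tissue. It lay at or near the floor on every array but mutant culture, and its difference did not pass when dim genes were tested (0.70 ± 0.37, limma adjusted p = 0.33).

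The calls of Fos, Egr1 and Btg2 held without either mutant tissue array but not when all 18193 genes were tested without the intensity filter, where their limma adjusted p-values were 0.082, 0.061 and 0.051 at the same sizes. In bulk RNA, a change in the number of cells of a type cannot be told apart from a change in RNA per cell.

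**Figure D2:**
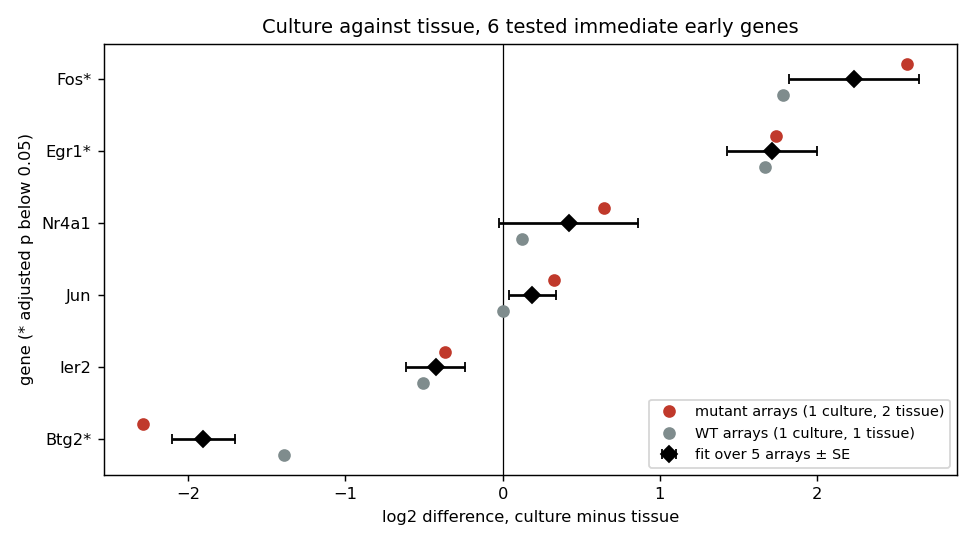
Log2 difference, culture minus tissue, for the 6 tested immediate early genes, with the fit over 5 arrays and its SE (black) between the mutant arrays (red) and the WT arrays (grey). Fos and Egr1 lie right of 0 and Btg2 left of 0 in both genotypes.

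Cell type markers differed between the preparations beside these genes. Summed signals of red blood cell genes were 7.24 to 11.9 in culture against 8013 to 10932 in tissue (3 of 6 listed genes named on the arrays). Endothelial markers summed to 117 to 174 against 723 to 834, microglial markers to 214 to 288 against 439 to 521, and progenitor markers to 4471 to 5849 against 10922 to 12376, culture before tissue (5, 4 and 5 genes, all named). Of 2 tested endothelial markers 1 fell, Cldn5, and Kdr did not pass (0.14 ± 0.20). Of 3 tested microglial markers 1 fell, Csf1r, and C1qa and Cx3cr1 did not pass. Astrocyte markers (5 of 5) summed to 959 to 1464 in culture against 443 to 496 in tissue, mesenchymal and pericyte markers (5 of 5) to 404 to 454 against 190 to 234, and neuronal markers (6 of 6) to 7951 to 9660 against 10894 to 12714. Among these, 3 of 3 tested astrocyte markers rose, and 1 of 2 tested mesenchymal and pericyte markers. Sums follow their brightest members. Of 6 neuronal markers tested 3 fell and 1 rose (median 0.05). Of 5 progenitor markers 2 fell, Hes5 and Sox2, and Nes rose by its brightest probe set. Another Nes probe set above the filter differed by 0.67 among mutant and 0.07 between WT arrays. The 4 MGE and GABA neuron genes named of 6, among them Nkx2-1 and Gad1, summed to 1510 to 2917 in culture and 1882 to 2552 in tissue. Behind these overlapping sums all 4 passed the threshold. Nkx2-1, Lhx6 and Gad2 differed by −1.94, −0.96 and −0.73, and Gad1 by 1.05. A second Lhx6 probe set above the filter differed by −0.75 among mutant and 0.28 between WT arrays. No marker of these lists lay at the floor on all 5 arrays, and the part of these shifts in the differences above was not tested.

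Other genes of the early response also moved in both directions. Of 38 further early response genes, 31 were tested, of which 12 rose in culture, 4 fell and 15 did not pass (median 0.37), beside 19.6% higher and 19.2% lower among all genes tested. The steepest rises by the naming rule were in Gadd45b, a growth arrest and DNA damage inducible gene, and Nr4a3, the relative of Nr4a1. Like Fos, these genes and Fosl2 had tissue signals below 27.8 on all 3 arrays and were tested because their culture signals were high, so their passing the threshold adds little to those values. Nr4a3 read 170 in mutant culture and 217 in WT culture, against 14.98 and 13.9 in mutant tissue and 1.55 in WT tissue, which lay at the floor (4.37 ± 0.47, limma adjusted p = 0.00033). WT culture was thus at least 43.5-fold higher than WT tissue. The other 2 Nr4a3 probe sets were too dim to test, and neither lay higher in culture than in tissue in both genotypes. Gadd45b read 211 in mutant culture and 244 in WT culture, against 21.99 and 9.58 in mutant tissue and 3.93, at the floor, in WT tissue. A rise of 4.62 ± 0.51 was fitted (adjusted p = 0.00038), but 1 of its 3 probe sets differed by only 0.09 in mutant and 0.70 in WT arrays, and with a floor at the 10th percentile that probe set became the brightest and the call was lost (0.35, limma adjusted p = 0.52).

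Rises were also seen in the matricellular genes Ccn2 (3.84 ± 0.15, limma adjusted p = 4.4e-06) and Ccn1 (3.28 ± 0.17, adjusted p = 1.1e-05). Ccn2 read 862 in mutant culture and 1005 in WT culture, against 63.3 and 56.4 in mutant tissue and 71.7 in WT tissue. The AP-1 subunit gene Fosl2 rose 9.11-fold, reading 98.2 in mutant culture and 140 in WT culture, against 8.53 and 10.6 in mutant tissue and 19.7 in WT tissue (limma adjusted p = 0.00046). Cebpd, a bZIP factor of inflammatory and glial responses, rose 8.18-fold (adjusted p = 6.5e-05). The steepest falls in that list were chosen after their values were seen: Gadd45g, a relative of Gadd45b linked to neural differentiation, fell by 1.55 ± 0.17 on the log2 scale (adjusted p = 0.00041) and Ier5 by 1.15 ± 0.14 (adjusted p = 0.00056). Gadd45g read 131 and 87.1 in mutant and WT culture, against 477 and 484 in mutant tissue and 207 in WT tissue.

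**Figure D3:**
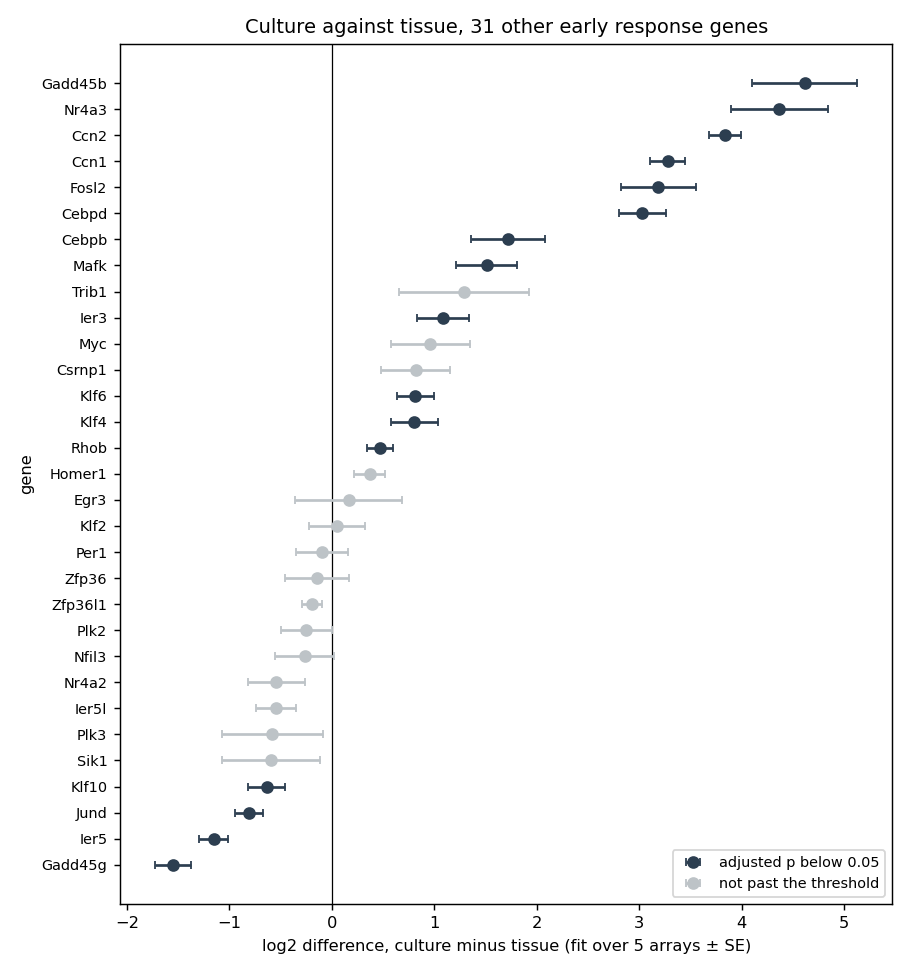
Log2 difference, culture minus tissue, of the 31 tested early response genes outside the 9 members, with the SE of the fit over 5 arrays; dark points passed the threshold and light points did not. The 12 genes that rose run up to Gadd45b at 4.62, and the 4 that fell run down to Gadd45g at −1.55.

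The signalling genes around this response did not move one way. Of 4 tested phosphatase genes that switch off MAP kinases, Dusp6 rose by 1.84 ± 0.21 (limma adjusted p = 0.00046), and Dusp2 and Dusp4 fell by 1.24 (adjusted p = 0.024) and 1.62 (adjusted p = 0.047). The calls of Dusp2 and Dusp4 needed both mutant tissue arrays. Dusp4 differed by −2.92 among mutant arrays but by 0.11 between the WT arrays. Dusp2 was below 27.8 in both cultures and was tested through its tissue signals. Of 17 tested genes for upstream kinases and transcription factors, 4 rose and 1 fell, a smaller share than the 38.8% of all genes tested. Srf, the serum response factor that binds CArG boxes, rose by 0.66 ± 0.16 (limma adjusted p = 0.014, and 0.062 without mutant tissue replicate 2). Map2k1, the kinase above ERK, rose by 1.17 ± 0.16 (adjusted p = 0.0010), and Mef2c and Camk4, genes of calcium-dependent transcription, by 1.62 (adjusted p = 0.012) and 1.82 (adjusted p = 0.030). The sizes were uneven between genotypes, 0.79 among mutant and 2.72 between WT arrays for Mef2c, and 0.71 and 3.29 for Camk4. Creb1, the factor that binds cAMP response elements, fell by 1.29 ± 0.09 by its brightest probe set (adjusted p = 5.5e-05), and a second bright probe set differed by −1.03 among mutant and −1.14 between WT arrays. Of its dimmer probe sets above the filter, 1 differed by 0.30 and −0.36, and another by 0.06 and 0.04, and the call was lost when probe sets were averaged. Of 5 late activity genes 1 was tested, and it rose: the secretogranin gene Scg2, by 1.58 ± 0.26 (adjusted p = 0.0025). Of 5 tested heat shock genes 3 rose, Hspb1 by 2.19, Hspa1b by 1.75 and Hspa8 by 0.24 (limma adjusted p = 0.00036, 0.0023 and 0.038), the last call also needing both mutant tissue arrays. The calls of Dusp2, Dusp4, Srf, Map2k1, Mef2c, Camk4, Scg2, Hspa1b, Hspa8 and Gadd45b were also lost without the intensity filter.

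The comparison of mutant with WT tissue asks what loss of Dlx1 and Dlx2 does to these genes in place. Btg2 rose 1.89-fold in mutant tissue, and it was the 1 of 6 tested members to pass. The background was 8.59% of all genes higher and 6.7% lower (15.3% in either direction), so 1 of 6 is near it. The median over the members was −0.16, against 0.001 over all genes tested. Both mutant arrays lay above the WT array for Btg2 alone among the 6, as for 40.8% of all genes tested, and below it for Fos and Ier2, as for 40.2%.

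The 2 mutant tissue arrays gave Btg2 signals of 807 and 902 against 446 in WT tissue, a difference of 0.92 ± 0.11 (limma adjusted p = 0.00019). The other probe set gave 587 and 559 against 365 (0.62 ± 0.12, adjusted p = 0.011 over all probe sets). Both mutant arrays lay above the WT array for both probe sets, and the pair differed from each other by 1.13-fold or less. The call did not hold without the intensity filter (adjusted p = 0.22) or with a variance prior that ignores intensity (0.12).

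Neuronal and proliferation markers moved in the same tissue arrays. Of 6 neuronal markers 4 rose in mutant tissue and the other 2 did not pass, with summed signals of 12714 and 12341 in mutant tissue against 10894 in WT tissue. Of 5 progenitor markers 2 rose, Nes by its brightest probe set and Sox2, and 2 fell, the proliferation genes Mki67 and Top2a. Progenitor sums were 11526 and 10922 in mutant tissue against 12376 in WT tissue. Another Nes probe set above the filter went the other way, at 55.9 and 66.1 in mutant tissue against 77.6 in WT tissue. These markers were named after their values were seen, and their part in the Btg2 difference was not tested.

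No other tested member passed in tissue, and the mutant pair of several was far apart. Fos read 10.9 and 18.9 in mutant tissue against 26.3 in WT tissue, lower in both, but the mutant arrays differed from each other by 1.75-fold (−0.75 ± 0.66, limma 95% interval −2.19 to 0.70, adjusted p = 0.50). Nr4a1 varied 2.09-fold between the mutant tissue arrays (difference from WT −0.49 ± 0.54, limma adjusted p = 0.60). Among all genes tested 1.57% varied by 2-fold or more. That share includes bright genes, while Nr4a1 lay just above the intensity filter (mean log2 signal 4.95 against 4.80). Egr1 varied 1.46-fold between the mutant tissue arrays and straddled WT (0.11 ± 0.44, limma 95% interval −0.86 to 1.08, adjusted p = 0.90). Ier2 read 122 and 108 in mutant tissue against 138 in WT tissue (−0.32 ± 0.21, 95% interval −0.78 to 0.14, adjusted p = 0.35). Jun read 296 and 260 in mutant tissue, on either side of 268 in WT tissue (−0.0048 ± 0.15, 95% interval −0.34 to 0.33, adjusted p = 0.99).

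**Figure D4:**
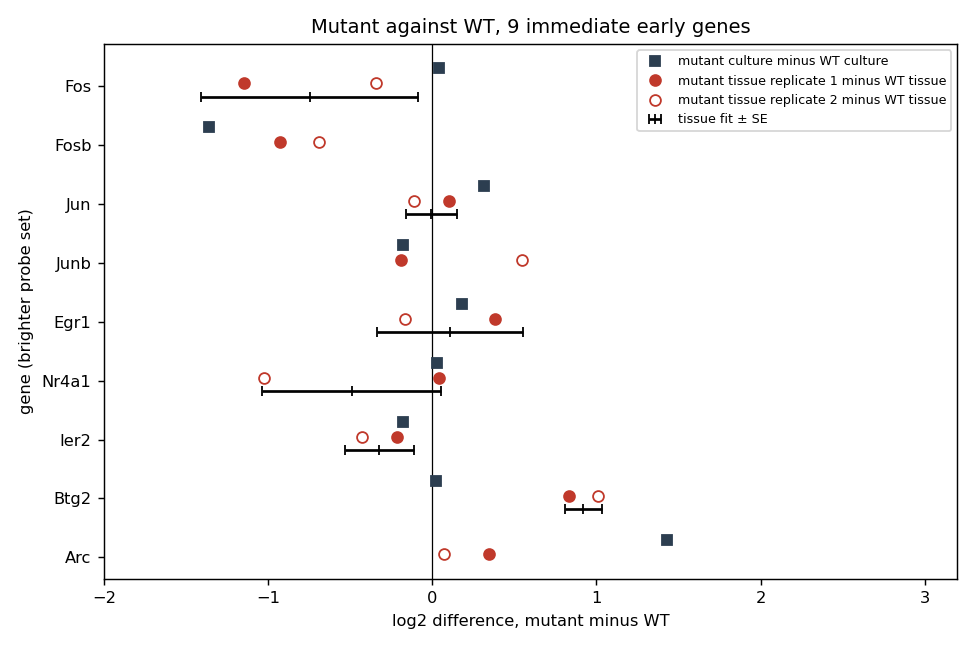
Log2 difference, mutant minus WT, of the 9 immediate early genes by their brighter probe set, in culture (squares, 1 array each) and for each mutant tissue array (circles), with the tissue fit and its SE for the 6 tested genes. Btg2 lies at 0.83 and 1.01 in tissue and at 0.02 in culture, and Nr4a1 and Fos show the widest gaps between the tissue arrays.

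Between the cultures, 1 array each and so without a test, the tested members lay close together. None of the 6 differed by 2-fold or more, a size that 1.85% of all genes tested reached upwards and 1.83% downwards. Fos, Btg2 and Nr4a1 differed by 1.03-fold, 1.01-fold and 1.02-fold, Egr1 and Ier2 by 1.13-fold each, and Jun by 1.24-fold, or 1.52-fold by its other probe set. The dim genes gave wider gaps in opposite directions. Fosb lay at the floor in mutant culture, so it was at least 2.56-fold lower there than in WT culture, and in tissue it read 7.23 and 8.52 in mutants against 15.4 in WT. With dim genes tested, Fosb differed by −1.05 ± 0.20 across both preparations (limma adjusted p = 0.43, unadjusted p = 0.013). Arc lay at the floor in WT culture, so it was at least 2.70-fold higher in mutant culture.

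Across both preparations together, 0 of the 6 tested members passed in the limma fit, where 1.07% of all genes did (0.814% higher and 0.253% lower). At an unadjusted p under 0.05 there was 1 member, Btg2 (0.53 ± 0.20, adjusted p = 0.32), against 1443 of the 11063 genes. The other 5 lay between −0.41 ± 0.41 (Fos) and 0.14 ± 0.29 (Egr1), with adjusted p-values of 0.58 to 0.87. The widest 95% intervals were those of Nr4a1, −1.29 to 0.75, and Fos, −1.36 to 0.54, so these differences were imprecise with 5 arrays.

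The genotype difference of Btg2 was smaller in culture than in tissue. By the brighter probe set it was 0.02 in culture and 0.92 in tissue. The difference between these, tested as an interaction, was −0.90 ± 0.20 (limma 95% interval −1.35 to −0.45, adjusted p = 0.036). The other Btg2 probe set gave 0.13 in culture and 0.62 in tissue. Its interaction of −0.49 ± 0.205 did not pass (limma adjusted p = 0.26 over all probe sets). Btg2 was the 1 of 6 tested members to pass, where 4.48% of all genes tested did, 2.27% with a lower and 2.21% with a higher genotype difference in culture than in tissue. The call was lost with every probe set tested (adjusted p = 0.070 for the brighter), with a gene's probe sets averaged (0.20), without an intensity trend (0.29) and without the intensity filter (0.31). Of 6 neuronal markers 5 also had a lower genotype difference in culture than in tissue. Of 5 progenitor markers 1 had a lower one, Nes by its brightest probe set, and 3 a higher one, Hes5, Mki67 and Top2a. The part of these markers in the Btg2 value was not tested. No interaction passed for the other 5 members, with adjusted p-values from 0.50 for Jun to 0.96 for Egr1.

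In the wider lists, 4 of 31 early response genes passed in mutant tissue, close to the 15.3% of all genes tested. Plk3, a stress-responsive polo-like kinase gene, rose by 1.68 ± 0.38 on the log2 scale (57.4 and 60.4 in mutant tissue against 19.3 in WT tissue, limma adjusted p = 0.011), and was tested through its mutant tissue signals, the other arrays being below 27.8. Gadd45g rose 2.27-fold (477 and 484 against 207, adjusted p = 8.8e-05) and Ier5 1.43-fold (874 and 1079 against 675, adjusted p = 0.019). Nfil3, a bZIP repressor, fell by 0.61 ± 0.18 on the log2 scale (164 and 143 against 224, adjusted p = 0.044). Gadd45g and Ier5 thus had, like Btg2, lower signals in culture and higher signals in mutant tissue; these comparisons share the tissue arrays. Of 4 tested phosphatase genes Dusp4 alone passed, rising 4.04-fold (829 and 858 against 207, adjusted p = 4.3e-07). Of the 17 upstream genes Camk4 rose by 2.88 ± 0.46 by 1 probe set (59.9 and 53.7 against 7.88, adjusted p = 0.0012), its other probe sets being too dim to test, and Mef2c fell by 1.17 ± 0.26 (adjusted p = 0.010), with all 5 of its probe sets lower in mutant tissue. Of 5 tested heat shock genes 1 rose, Hspa8 by 0.30 ± 0.06 (limma adjusted p = 0.0044, or 0.03 with adjusted p = 0.93 on the deposited scale), and the 1 tested late activity gene did not pass. None of these 8 calls held with a variance prior that ignores intensity, and of them only that of Dusp4 held without the intensity filter.

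The genes whose centred log2 profile over the 5 arrays lay nearest to that of Fos were Npy2r, Lratd2 and Epb41l4a, at Euclidean distances of 0.29, 0.30 and 0.32. Npy2r, a neuropeptide Y receptor gene, read 125 in mutant culture and 137 in WT culture, against 19.5 and 32.9 in mutant tissue and 36.0 in WT tissue. Nearest to the median profile of the 6 tested members were Ncaph2, Mrtfb and Ptpmt1, at 0.10, 0.14 and 0.15. These likenesses describe 5 arrays and carry no test.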

How the data were processed

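RNA was measured on 5 Affymetrix mouse expression arrays, as named in the series title. The authors deposited 1 linear intensity per probe set; the software that made it is not given in these sources. With the lowest and highest 2% of probe sets set aside, the mean intensity was 150.00 in every array, and medians were 26.2 to 29.8. Values were quantile normalized, set to at least the pooled 20th percentile (5.15) and taken to log2. Of 45101 probe sets, 34958 had 1 gene symbol in the platform annotation, 932 several and 9211 none here; 64 control probe sets were left out. The probe set with the highest mean stood for each of 18193 genes, and the 11063 genes above the pooled median were tested with limma 3.58.1 (R 4.3.3, variance prior with an intensity trend), Benjamini-Hochberg adjusted over all of them. The models had 2 residual degrees of freedom over 5 arrays (additive in preparation and genotype) and 1 in tissue, among mutant arrays and for the interaction. Groups with 1 array borrow the spread of the mutant tissue pair. The variance prior, taken from all tested genes, added 5.95 degrees of freedom in the additive models and 10.9 in tissue. It added 9.28 among mutant arrays and 8.57 for the interaction. A gene's p-value thus rests mostly on the spread of other genes of like intensity. The test was tried on simulated data in which all genes had the same spread. These arrays differ in that, so no error rate follows for them. The members and lists were chosen with earlier results of these data known. Lists were further early response genes, MAP kinase phosphatases, upstream factors, late activity genes, heat shock genes and cell type markers. All members were named; from the other lists, up to 6 genes past the threshold with the largest difference in each of culture against tissue and mutant against WT tissue. Promoters came from RefSeq (GRCm38.p6). Alternatives were the deposited scaling, other floors, no intensity filter, averaged or separate probe sets, no intensity trend, leaving out each mutant tissue array, and the mutant arrays alone.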

Additional observations from a re-analysis of the deposited data

Results flagged for a closer look

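The genotype difference differed between culture and tissue by the interaction test (limma, adjusted p below 0.05) for the genes below, given as the culture difference minus the tissue difference. Btg2 was the 1 member among them, at −0.90 ± 0.20 (mutant minus WT 0.02 in culture and 0.92 in tissue), and passed under 3 of 7 alternatives. That value is from its brighter probe set, and the other gave −0.49 ± 0.205, which did not pass (limma adjusted p = 0.26 over all probe sets). Dusp4 gave −3.03 ± 0.20 (−1.01 in culture and 2.02 in tissue, adjusted p = 0.0002) and passed under 6 of 7. Mef2c gave −1.93 ± 0.31 (−3.10 in culture and −1.17 in tissue, adjusted p = 0.0096) and passed under 4 of 7. Nfil3 gave −1.38 ± 0.28 (−1.98 in culture and −0.61 in tissue, adjusted p = 0.027) and passed under 3 of 7. Camk4 gave −2.58 ± 0.54 (0.30 in culture and 2.88 in tissue, adjusted p = 0.030) and passed under 2 of 6. Of the further early response and upstream genes that the report does not name, Rps6ka5 (−2.22 ± 0.26, limma adjusted p = 0.0030) and Plk2 (−1.15 ± 0.24, limma adjusted p = 0.030) passed too. Several cell type markers also passed and are not listed here. The targeted gene Dlx2 gave 2.23 ± 0.48 (−3.94 in culture and −6.17 in tissue). Dlx1 gave 2.41, but it lay at the floor on all 3 mutant arrays, so this is only its difference between WT culture and WT tissue with the sign turned and says nothing of the genotype effect.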

How the results depend on the processing

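The 3 member calls between culture and tissue held under 9 of 10 alternatives each. Testing all 18193 genes without the intensity filter left 0 members higher and 0 lower, with 1894 genes called in all instead of 4297; testing every probe set called 6742. In tissue the Btg2 call was lost (0 members higher) without the filter and without an intensity trend. Genes called there numbered 389 without the filter, 489 with averaged probe sets and 2 without the trend, instead of 1691. Across both preparations, 0 members passed under all 9 alternatives, and genes called in all were 0 without the filter, 35 with averaged probe sets, 4 without the trend, and 35 to 36 without either mutant tissue array, instead of 118. For the interaction, 0 members were lower without the filter, with averaged probe sets, with every probe set tested and without the trend; averaging left 4 genes in all and dropping the trend left 0, instead of 496. Signs turned only for values that had not passed. In tests these were Jun between preparations (−0.12 with averaged probe sets) and in tissue (0.049 with the deposited scaling), and Nr4a1 across both preparations (−0.50 to 0.033 without one mutant tissue array). With 1 mutant tissue array left out and so no test, the sign also turned for Egr1 (−0.16 to 0.37), Jun (−0.11 to 0.10) and Nr4a1 (−1.02 to 0.040) in tissue, and for the interaction of Egr1 (−0.20 to 0.34) and Nr4a1 (−0.014 to 1.05). The cause of these changes was not tested. In tissue and for the interaction, leaving out a mutant array leaves no residual degrees of freedom, so only values were computed. No paired analysis was possible because only mutant tissue had more than 1 array, so the groups share at most 1 replicate number. Fosb, Junb, Arc and the tissue values of Fos lie at dim signals near the floor and the intensity filter, which limits what can be read from them.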
